A study of Mus musculus with 14 samples.

Results

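The genes described here are 10 imprinted regulators of growth that are grouped with *Dlk1*: *Dlk1*, *Meg3*, *Peg3*, *Mest*, *Igf2*, *H19*, *Igf2r*, *Plagl1*, *Grb10* and *Ndn*. They were found on Affymetrix mouse expression arrays as probe sets, groups of short probes to 1 transcript, whose only gene symbol was 1 of the 10. This gave 37 probe sets for 9 genes. The probe set with the highest mean over the 14 arrays stood for its gene and the others served as a check. The only probe set of *H19* carried 2 symbols, because *Mir675* lies within *H19*, so *H19* had no value. Of the 9 genes, 7 passed the filter on low values, 50 intensity units or above on no fewer than 3 arrays, and were tested with the 8682 genes that passed it. *Meg3* and *Grb10* did not pass.

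RNA came from 3T3-L1 preadipocytes, mouse fibroblasts that become fat cells under a hormone mixture. One line carried a SETD5 virus, a pMXs retrovirus whose weak LTR promoter drives V5-tagged SETD5, and the other an empty virus. SETD5 is a SET domain protein that was put into the cells to ask how it acts on fat cell differentiation. Both arms received insulin, dexamethasone and isobutylmethylxanthine 2 days after confluence, and insulin alone from 48 h. RNA was taken at 0, 12, 24, 36, 48, 96 and 192 h, which gave 7 SETD5 virus arrays and 7 empty virus arrays, 1 for each hour. Each arm is 1 transduced, drug-selected line, so the effect of SETD5 and any other difference between the lines cannot be told apart. With 1 array for each arm and hour, p-values rest on how the difference between the arms varied from hour to hour. They do not measure the spread between cultures. In bulk RNA, fewer cells with a transcript and less of it per cell cannot be told apart either.

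Imprinted genes are read from only the maternal or only the paternal copy, under control of DNA methylation set in the germ line. *Dlk1*, *Peg3*, *Mest*, *Igf2*, *Plagl1* and *Ndn* are mainly read from the paternal copy, and *Meg3*, *H19*, *Igf2r* and, in most tissues, *Grb10* from the maternal one. Many belong to a network of genes that is active in the embryo and shut down after birth. *Dlk1*, also called Pref-1, encodes a membrane protein with EGF-like repeats that marks preadipocytes, is shed by the protease ADAM17 and holds back fat cell formation. The arrays do not tell the parental copies apart.

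Promoter windows from RefSeq (build GRCm38.p6), 250 bases before to 50 after a start, were at hand for 9 of the 10 genes, in 16 windows. They are shown for the 3 genes that differed between the viruses and for *Meg3*, the neighbour of *Dlk1*. Where a gene had several windows, the one with the most CpG is given. Capitals mark matches on either strand to 6 motifs: GGGGCCCC (a GC-rich site of the kind PLAGL1 binds), TTGCGCAA (a C/EBP palindrome), TATAAA (where TBP sits), CACGTG (E-box), AAGATGG (YY1 core) and GGGCGG (GC box).
Dlk1, chr12:109452573-109452872, + strand: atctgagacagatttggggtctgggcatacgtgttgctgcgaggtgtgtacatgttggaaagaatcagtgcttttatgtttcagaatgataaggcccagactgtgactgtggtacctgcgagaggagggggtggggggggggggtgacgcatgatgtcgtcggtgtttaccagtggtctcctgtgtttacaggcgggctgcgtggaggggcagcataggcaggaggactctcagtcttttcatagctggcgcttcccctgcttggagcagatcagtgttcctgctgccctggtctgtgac
Meg3, chr12:109540746-109541045, + strand: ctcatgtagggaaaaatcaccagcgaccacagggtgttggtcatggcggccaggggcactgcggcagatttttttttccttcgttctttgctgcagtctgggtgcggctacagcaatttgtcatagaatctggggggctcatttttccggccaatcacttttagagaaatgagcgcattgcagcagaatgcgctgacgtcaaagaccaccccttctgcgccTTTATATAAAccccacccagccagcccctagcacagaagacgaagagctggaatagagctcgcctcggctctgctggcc
Peg3, chr7:6730370-6730669, − strand: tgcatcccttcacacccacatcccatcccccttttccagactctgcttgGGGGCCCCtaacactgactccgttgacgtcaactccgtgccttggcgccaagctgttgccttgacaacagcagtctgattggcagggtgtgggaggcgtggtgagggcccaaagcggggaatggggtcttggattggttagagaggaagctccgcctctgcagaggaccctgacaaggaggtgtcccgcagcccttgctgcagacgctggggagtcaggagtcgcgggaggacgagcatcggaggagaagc
Mest, chr6:30737800-30738099, + strand: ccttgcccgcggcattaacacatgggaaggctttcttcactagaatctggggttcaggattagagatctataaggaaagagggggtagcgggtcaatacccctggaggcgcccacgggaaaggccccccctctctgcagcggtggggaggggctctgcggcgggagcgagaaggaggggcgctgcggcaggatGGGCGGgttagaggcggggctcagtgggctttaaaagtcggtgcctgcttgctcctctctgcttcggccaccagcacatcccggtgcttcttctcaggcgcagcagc
The *Dlk1* window holds none of the 6 motifs. The *Meg3* window holds 2 overlapping matches to TATAAA, 1 on each strand, a motif found in 13.6% of all 32851 windows. Of the 9 genes with windows, *Peg3* alone had GGGGCCCC, a match present in 1.08% of windows. *Mest* holds 1 GGGCGG, present in 35.7% of windows. The E-box, present in 7.15% of windows, occurs in *Igf2r* and *Plagl1* windows, while AAGATGG (6.34%) and TTGCGCAA (0.183%) occur in none of the 16. The windows hold 9 CpG in *Dlk1*, 13 in *Meg3*, 13 in *Peg3* and 17 in *Mest*, against a median of 7 over all windows. These are matches of letters, and no binding was measured.

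All arrays had the same trimmed mean intensity of 100, and 88.4% to 93.8% of the tested genes reached 50 on each. Fat cell markers rose as the labels say: *Fabp4*, a fatty acid carrier of fat cells, went up 7.43 on the log2 scale at 192 h against 0 h (limma, adjusted p = 8.6e-06). All 7 measured adipocyte markers were called higher at 192 h than at 0 h, where 19.6% of all genes were called. *Fabp4*, *Adipoq*, *Cd36*, *Retn* and *Cidec* were under 50 at 0, 12 and 24 h in both arms. They passed the filter only through later hours, in which they were high. In the late hours (36 to 192 h), 6 of the 7 markers were called lower in the SETD5 arm, against 12.0% of all genes called. The median of the 7 was −1.48, against 0.04 over all genes. Their summed intensity ran from 1490 to 20448 with the SETD5 virus and from 1453 to 37991 with the empty virus. None of 13 measured markers of immune, endothelial, muscle, bone, cartilage or epithelial cells passed the filter, and the highest single value was 50.6, for the muscle gene *Des*. The 3 *Setd5* probe sets did not separate the arms: the main one averaged 302 with the SETD5 virus and 309 with the empty virus (log2 difference −0.03 ± 0.06 SE, adjusted p = 0.788, limma). Whether those probes lie within the coding sequence carried by the virus was not checked, so the arms rest on their labels.

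*Dlk1* was lower in the middle hours and near its starting level at 192 h. With the SETD5 virus its intensity was 2595, 2166, 2053, 1758, 885, 1123 and 2773 at 0, 12, 24, 36, 48, 96 and 192 h. With the empty virus it was 2389, 2167, 1860, 1359, 855, 719 and 1813 at the same hours. The lowest hour was 48 h in the SETD5 arm and 96 h in the empty virus arm, and only in the SETD5 arm did the value at 192 h exceed that at 0 h. Over both arms, *Dlk1* was lower than at 0 h by 0.68 ± 0.17 (SE) at 36 h, 1.50 ± 0.17 at 48 h and 1.45 ± 0.17 at 96 h on the log2 scale (a 2.83-fold drop at 48 h). These 3 differences passed the test (limma, virus as a block, adjusted p = 0.0148, 0.000198 and 0.000538, the one at 36 h lost with no virus term at 0.0559), where 29.4%, 34.2% and 15.6% of all genes were called. At 192 h the difference from 0 h was −0.15 ± 0.17 (adjusted p = 0.568). From 96 h to 192 h *Dlk1* rose by 1.30 ± 0.17, that is 2.47-fold (adjusted p = 0.00172), a comparison chosen after the values were seen, in which 7.39% of genes were called. The rise was 1.29 in the SETD5 arm and 1.31 in the empty virus arm.

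*Dlk1* was higher in the SETD5 arm at all 4 late hours. The differences on the log2 scale were 0.12, 0.00 and 0.14 at 0, 12 and 24 h, and 0.37, 0.05, 0.63 and 0.61 at 36, 48, 96 and 192 h. At 96 and 192 h the SETD5 value was 1.56 and 1.53 times that with the empty virus. The late effect was 0.41 ± 0.10 (1.33-fold, limma, adjusted p = 0.0337), where 12.0% of all genes were called. The effect over all hours was 0.27 ± 0.09 and missed the threshold (adjusted p = 0.123), and so did the late minus early difference (0.33 ± 0.16, adjusted p = 0.426). With late hours taken as 96 and 192 h alone, that difference was 0.53 and passed (adjusted p = 0.047), and the late effect was 0.62. In that setting 916 of the 8682 genes were called for the difference, against 2 in the main one, and 2367 for the late effect. The late call was lost when the pair of arrays at 0, 12, 24, 96 or 192 h was left out (adjusted p = 0.0626, 0.0609, 0.0615, 0.138 and 0.0914), with late effects of this probe set between 0.34 and 0.62 over the other settings. In these hours the fat cell markers were lower in the SETD5 arm, as given above. Of 4 tested preadipocyte markers, *Pdgfra* was called higher late (0.28, adjusted p = 0.0472), *Pdgfrb* and *Thy1* were at 0.25 and 0.38 and *Zfp423* at −0.36, uncalled, with a median of 0.26. Their summed intensity ran from 2222 to 4589 with the SETD5 virus and from 2085 to 3883 with the empty virus. The 4 did not share a course over time. Over both arms *Pdgfra* was above 0 h by 0.97 at 48 h and 0.77 at 192 h (limma, adjusted p = 0.000288 and 0.00235). *Pdgfrb* was lower than at 0 h by 1.84 at 48 h (adjusted p = 1.72e-05). A late call of *Pdgfra* is thus no measure of preadipocytes left over. From 96 h to 192 h *Pdgfrb* rose by 0.59 and *Zfp423* by 0.84 (adjusted p = 0.0311 and 0.0359), while *Pdgfra* and *Thy1* were not called. The part of either marker list in the *Dlk1* differences was not tested.

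The second *Dlk1* probe set was dimmer and also dipped, but fell and recovered earlier. It gave 92.2, 55.1, 43.0, 20.5, 30.1, 69.3 and 115.1 by hour with the SETD5 virus, and 76.2, 65.1, 40.5, 24.2, 25.0, 51.2 and 83.2 with the empty virus. Its lowest values were at 36 h in both arms, and both exceeded 0 h at 192 h. It reached 50 on 8 arrays, all from 0, 12, 96 and 192 h, so it passed the filter only through hours in which it was high. Every value at 24, 36 and 48 h was under 50, so the drops tested there rest on values under the filter. In a fit over every probe set it fell by 0.79 ± 0.16 at 24 h, where the main one was not called, and by 1.38 ± 0.16 at 36 h and 1.20 ± 0.16 at 48 h (adjusted p = 0.00363, 0.000229 and 0.000519). At 96 h it was −0.40 ± 0.16 and not called (adjusted p = 0.129), against −1.45 for the main one, so the low level at 96 h rests on 1 of the 2 probe sets. Its late SETD5 effect was 0.19 ± 0.11 and was not called (adjusted p = 0.261), nor was its rise from 96 h to 192 h of 0.59 ± 0.16 (adjusted p = 0.0554).

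**Figure D1:**
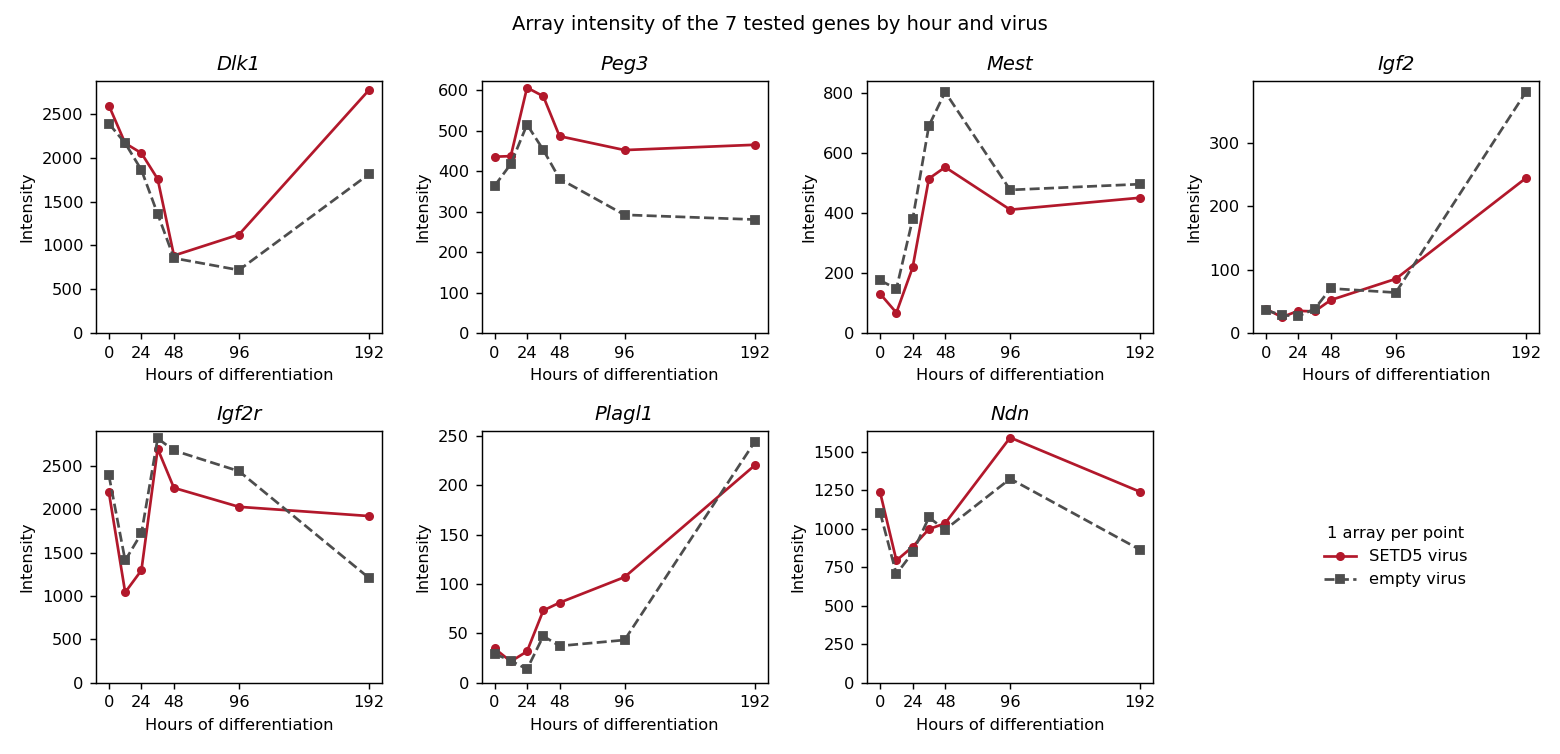
Array intensity (linear scale) against hours of differentiation for the 7 tested genes, with 1 array per point, SETD5 virus as red circles and solid lines, empty virus as grey squares and dashed lines. *Dlk1* dips to 885 at 48 h with the SETD5 virus and to 719 at 96 h with the empty virus, *Mest* climbs to a peak at 48 h in both arms, and *Igf2* and *Plagl1* are highest at 192 h in both.

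The noncoding RNA *Meg3*, which lies beside *Dlk1* on chromosome 12 and is read from the opposite parental copy, stayed low. Its 11 probe sets gave at most 23.9 on any array. The main one ranged from 12.4 to 23.9 with the SETD5 virus and from 4.8 to 20.1 with the empty virus, so the arms overlapped. The other noncoding RNAs of this cluster, *Rian* and *Mirg*, were at most 15.3 and 11.9. No test was made on *Meg3*.

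Of the insulin-like growth factor genes, *Igf2*, which encodes the fetal growth factor, rose late in both arms. Its intensity with the SETD5 virus was 38.2, 25.2, 35.1, 34.1, 52.1, 85.5 and 244.3 by hour. With the empty virus it was 36.1, 28.3, 26.7, 38.0, 70.4, 63.9 and 379.8. The values at 192 h were the highest of each arm, and 8 of the 14 arrays were under 50. All arrays at 50 or above were from 48, 96 and 192 h. *Igf2* thus passed the filter only through later hours, in which it was high and which are compared with 0 h here. *Igf2* was higher than at 0 h by 0.76 ± 0.20 at 96 h (adjusted p = 0.0314) and by 2.60 ± 0.20 at 192 h (6.04-fold on the scale of intensity plus 16, adjusted p = 5.36e-05), where 15.6% and 19.6% of genes were called. The call at 96 h was lost with an offset of 64 in place of 16 (0.45, adjusted p = 0.074) and with no filter (adjusted p = 0.0582). The rise from 96 h to 192 h was 1.83 ± 0.20 (adjusted p = 0.000708), at 1.36 in the SETD5 arm and 2.31 in the empty virus arm. The arms differed in no fixed direction: the SETD5 value was higher at 3 hours and lower at 4, with −0.60 at 192 h. The effect over all hours was −0.07 ± 0.11 (adjusted p = 0.719) and the late one −0.18 ± 0.14 (adjusted p = 0.412). The second *Igf2* probe set was at most 16.7 on any array and was not tested, so the late rise rests on 1 of the 2 probe sets.

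*Igf2r* encodes the receptor that binds IGF2 and carries it to the lysosome. It gave 2192, 1041, 1296, 2695, 2245, 2027 and 1920 with the SETD5 virus, and 2388, 1409, 1722, 2814, 2675, 2437 and 1208 with the empty virus. It was low at 12 and 24 h in both arms, and the empty virus arm was low again at 192 h. The drop at 12 h was 0.91 ± 0.22 (1.88-fold, adjusted p = 0.0077), where 47.8% of genes were called, and the second probe set fell by 0.84 ± 0.16 (adjusted p = 0.00228). The SETD5 arm was lower at 6 of 7 hours, by 0.06 to 0.43, and higher by 0.66 at 192 h. No effect was called over all hours (−0.12 ± 0.12, adjusted p = 0.549) or late (0.02 ± 0.15, adjusted p = 0.935). The second probe set had the opposite sign over all hours (0.09 ± 0.09, adjusted p = 0.562) and was higher with the SETD5 virus at 24, 36, 96 and 192 h.

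*Grb10*, whose product binds the insulin and IGF1 receptors and dampens their signal, was under 50 on every array with all 3 probe sets. Its main probe set ranged from 18.5 to 30.1 with the SETD5 virus and from 11.6 to 21.1 with the empty virus. It was not tested, and *H19*, the noncoding RNA that shares its control region with *Igf2*, had no value.

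Among the regulators in the nucleus, *Plagl1*, a zinc finger factor that controls other imprinted genes, climbed to its highest level at 192 h. With the SETD5 virus it gave 34.8, 21.6, 31.8, 73.2, 81.1, 107.0 and 220.0 by hour, and with the empty virus 29.4, 22.3, 13.8, 47.3, 37.3, 43.3 and 243.7. In the SETD5 arm it was over 70 from 36 h on, and in the empty virus arm only at 192 h. At 192 h it was 2.37 ± 0.27 above 0 h (5.16-fold, adjusted p = 0.000379) and 1.54 ± 0.27 above 96 h (adjusted p = 0.00778). The difference between the viruses on the log2 scale was 0.68, 0.49, 0.87 and 1.05 at 24, 36, 48 and 96 h, all against empty virus values under 50, and −0.14 at 192 h. Over all hours the difference was 0.44 ± 0.14 (adjusted p = 0.113) and late 0.57 ± 0.18 (adjusted p = 0.0692), so neither was called. *Plagl1* reached 50 in the SETD5 arm from 36 h on and in the empty virus arm at 192 h alone. It thus passed the filter through late arrays, mostly of the SETD5 arm. Without the arrays at 192 h the late difference was 0.80 and passed (limma, adjusted p = 0.0164). That call gives no support, since only SETD5 arrays then reached 50. The other 2 *Plagl1* probe sets were at most 23.8.

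*Peg3*, a zinc finger protein of the p53 and TNF pathways, was higher in the SETD5 arm at every hour. It gave 435.9, 437.3, 606.6, 585.3, 486.6, 452.3 and 465.3 with the SETD5 virus. The empty virus arrays gave 363.6, 417.7, 515.3, 452.7, 381.3, 292.2 and 280.6. The log2 difference was 0.06 at its smallest, at 12 h, and 0.70 at its largest, at 192 h. Over all hours it was 0.36 ± 0.08 (1.29-fold, higher at 7 of 7 hours, adjusted p = 0.0437), where 3.62% of genes were called, and late 0.50 ± 0.09 (1.41-fold, adjusted p = 0.0106). The late minus early difference was 0.32 ± 0.14 and was not called (adjusted p = 0.381). Over both arms *Peg3* peaked at 24 h, at 0.47 ± 0.15 above 0 h (adjusted p = 0.0322), where 38.4% of genes were called, a call lost with no filter (0.0577) and with no virus term (0.184). Its window, shown above, is the one with GGGGCCCC.

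The call of *Peg3* over all hours stood near the threshold. It was lost without the pair of arrays at 0, 24, 36, 48, 96 or 192 h (adjusted p = 0.0647, 0.0818, 0.0998, 0.111, 0.124 and 0.0517), with effects of this probe set between 0.31 and 0.41. The late call was lost only without 96 h among the hours left out (adjusted p = 0.0545). Over all hours the second probe set gave 0.26 ± 0.09 (adjusted p = 0.113) and the third 0.28 ± 0.07 (adjusted p = 0.0451). Late, they gave 0.37 ± 0.11 and 0.28 ± 0.10, and neither was called (adjusted p = 0.0509 and 0.0766). The third probe set reached 50 on only 3 arrays, SETD5 virus at 24 and 36 h (78.1 and 54.0) and empty virus at 24 h (64.9). It thus passed the filter mostly through the SETD5 arm, in which it was high, and its call over all hours gives no support.

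*Ndn*, which encodes necdin, a MAGE family protein that restrains growth, was called over time but not for the virus over all 7 or the 4 late hours. It gave 1237, 795, 884, 998, 1036, 1593 and 1241 with the SETD5 virus, and 1106, 706, 847, 1074, 995, 1326 and 864 with the empty virus. Both arms were lowest at 12 h and highest at 96 h. *Ndn* fell by 0.63 ± 0.14 at 12 h (adjusted p = 0.00462) and by 0.43 ± 0.14 at 24 h (adjusted p = 0.036). The call at 24 h was lost with a common median, no filter, no virus term or without 12 h (adjusted p = 0.071, 0.0642, 0.0738 and 0.0522). The other 4 probe sets over the filter fell by 0.59 to 0.77 at 12 h and all passed the test. The SETD5 effect was 0.16 ± 0.08 over all hours (adjusted p = 0.234) and 0.18 ± 0.10 late (adjusted p = 0.257). With late hours taken as 96 and 192 h alone it was 0.39 and passed (adjusted p = 0.0291). In that setting 2367 of the 8682 genes were called, against 1041 with all 4 late hours.

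*Mest*, an enzyme of the alpha/beta hydrolase family that is known to rise in growing fat tissue, was lower in the SETD5 arm at every hour. Its 1 probe set gave 131.0, 68.0, 219.0, 515.2, 553.5, 411.6 and 451.5 with the SETD5 virus. With the empty virus it gave 175.6, 148.0, 379.6, 691.7, 804.0, 477.6 and 496.8. Both arms had their trough at 12 h and their peak at 48 h, and the drop at 12 h was 0.81 in the SETD5 arm and 0.22 in the empty virus arm. The log2 difference was −0.38, −0.97, −0.75, −0.41, −0.53, −0.21 and −0.13 by hour, widest at 12 h and smallest at 192 h. Over all hours it was −0.48 ± 0.10 (1.40-fold lower at 7 of 7 hours, adjusted p = 0.0329). The early effect was −0.70 ± 0.13 (adjusted p = 0.205), in a comparison where 0.023% of genes were called, and the late effect −0.32 ± 0.11 (adjusted p = 0.0823). The late minus early difference was 0.38 ± 0.17 (adjusted p = 0.396), where 0.023% of genes were called. The call over all hours was lost without the pair at 0, 12, 24, 36, 48 or 96 h (adjusted p = 0.0549, 0.0536, 0.087, 0.0832, 0.101 and 0.0674).

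Over time *Mest* changed more than any of the other 6 genes except *Igf2* and *Plagl1*. Over both arms it was 0.52 ± 0.19 lower at 12 h (adjusted p = 0.0422) and 0.86 ± 0.19 higher at 24 h (adjusted p = 0.00486). The call at 12 h held in 7 of 14 alternatives and was lost with quantile normalization, a common median, an offset of 64, no filter, no virus term, and without 36 or 48 h (adjusted p between 0.0508 and 0.237). That at 24 h was lost with no virus term (0.0709). At 36 and 48 h it was 1.87 ± 0.19 and 2.03 ± 0.19 above 0 h (adjusted p = 8.72e-05 and 5.24e-05, 4.07-fold at 48 h). It stayed above 0 h by 1.45 ± 0.19 at 96 h and 1.54 ± 0.19 at 192 h. At 48 h, its peak, *Dlk1* was lower than at 0 h in both arms.

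**Figure D2:**
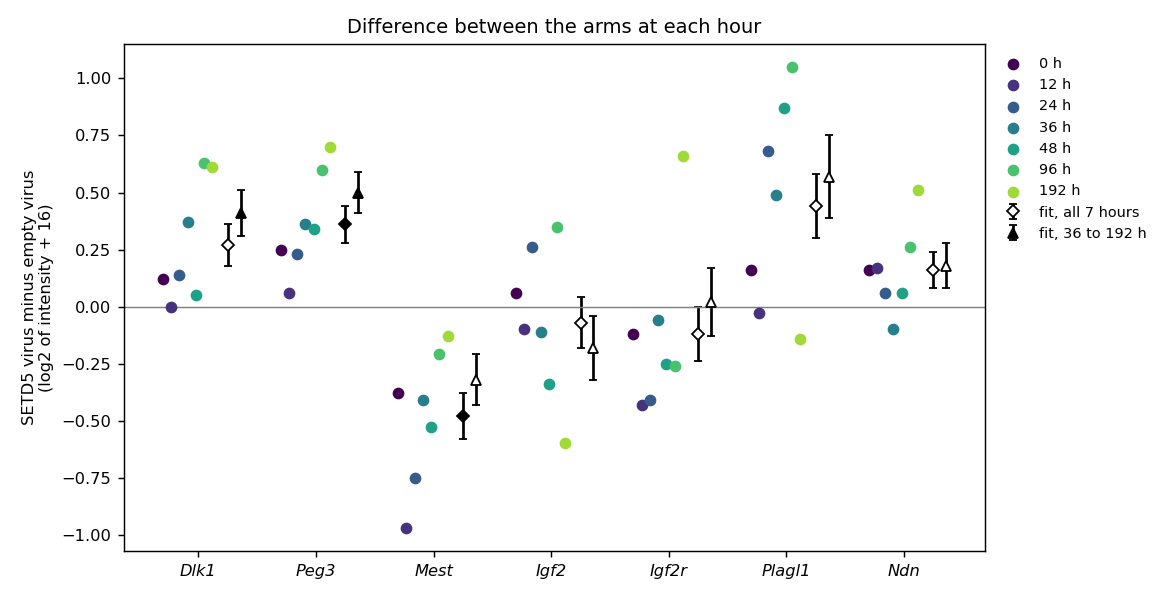
SETD5 virus minus empty virus at each hour on the log2(intensity + 16) scale, 1 point per hour and gene, with fitted effects ± SE over all 7 hours (diamonds) and over 36 to 192 h (triangles), filled where adjusted p was under 0.05. *Peg3* is above 0 and *Mest* below 0 at all 7 hours, and the filled marks are those of *Dlk1* late (0.41), *Peg3* over all hours (0.36) and late (0.50), and *Mest* over all hours (−0.48).

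Set side by side, 2 of the 7 tested genes were called for the virus over all hours, *Peg3* up and *Mest* down, against 3.62% of all genes. In the late hours 2 of 7 were called, *Dlk1* and *Peg3*, both up, against 12.0% of all genes. The median effect of the 7 was 0.16 over all hours and 0.18 late, and that of all genes 0.03 and 0.04. In the early hours and in the late minus early difference limma called none of the 7, and 0.023% of all genes in each. In the early hours *Mest* alone had an unadjusted limma p under 0.05, as had 6.22% of all genes. In the difference *Peg3* and *Mest* had one, as had 12.6% of all genes.

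All 7 tested genes changed over the hours (moderated F, limma), and so did 66.0% of all genes. Their largest difference between hours had a median of 1.50 on the log2 scale, against 0.74 for all genes. That median includes *Igf2* and *Plagl1* (2.91 and 2.71), which passed the filter only through later hours in which they were high. A wide range and a call at 192 h were thus favoured by the filter for these 2 genes. At 12 h *Mest*, *Igf2r* and *Ndn* were lower, at 24 h *Peg3* and *Mest* were higher and *Ndn* lower, and at 36 and 48 h *Mest* was higher and *Dlk1* lower. At 96 h *Mest* and *Igf2* were higher and *Dlk1* lower, and at 192 h *Mest*, *Igf2* and *Plagl1* were higher. Of all genes, 47.8%, 38.4%, 29.4%, 34.2%, 15.6% and 19.6% were called at 12, 24, 36, 48, 96 and 192 h. These comparisons share the arrays at 0 h.

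**Figure D3:**
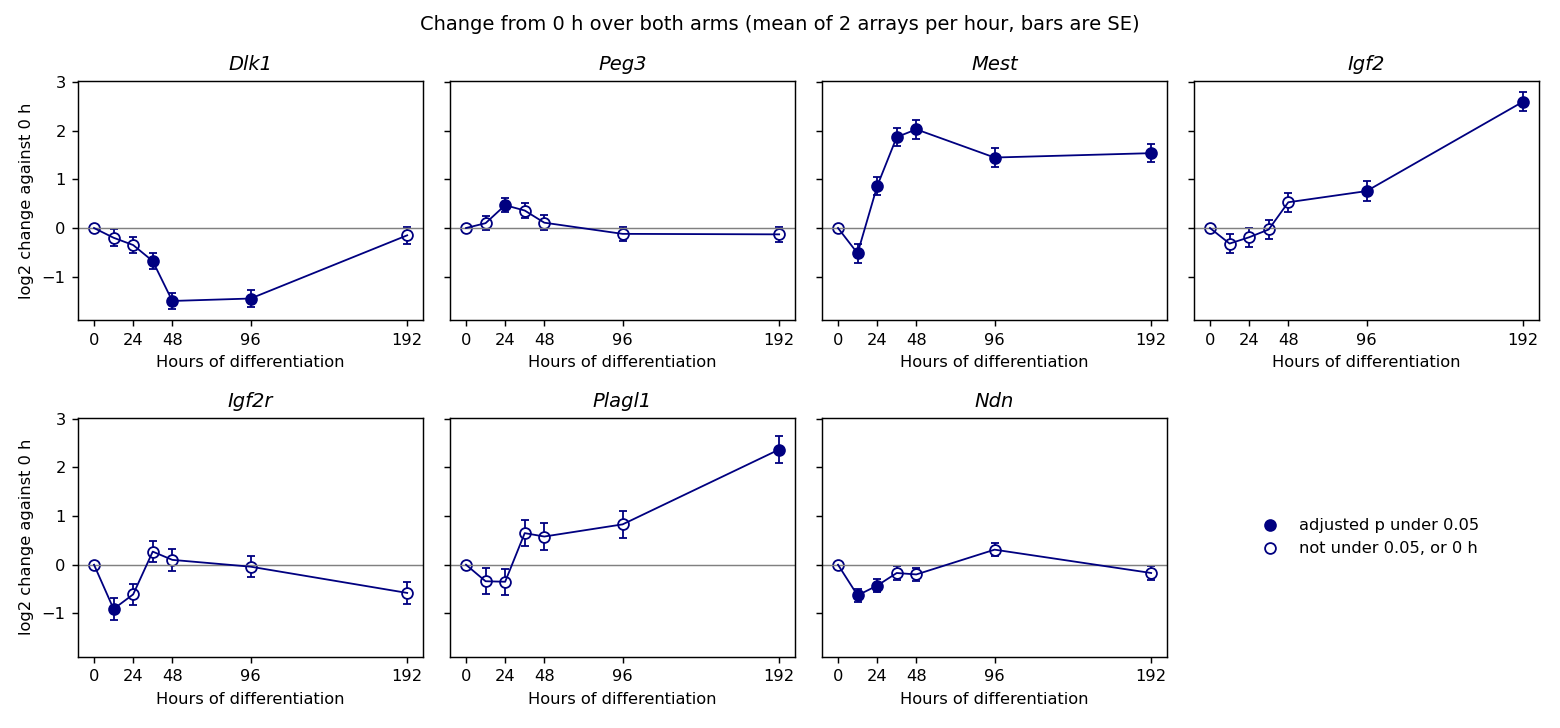
Log2 change against 0 h over both arms (mean of the 2 arrays of each hour, bars are SE) plotted against hours for the 7 tested genes, filled where adjusted p was under 0.05. *Dlk1* is at −1.50 at 48 h and −0.15 at 192 h, *Mest* peaks at 2.03 at 48 h, and *Igf2* and *Plagl1* reach 2.60 and 2.37 at 192 h.

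A list of 66 other genes imprinted in at least 1 mouse tissue, many of them only in placenta, gives the setting. Of these, 57 had a probe set and 24 were tested. Over all hours limma called none for the virus (6 had an unadjusted p under 0.05, against 23.6% of all genes), and 3 were called late, all higher with the SETD5 virus. These 3 are 12.5% of the 24, near the 12.0% of all genes. The late median of the 24 was 0.08, against 0.04 over all genes. Of the 24, 16 changed over the hours, against 66.0% of all genes. At 12 h, 9 were called, 7 of them lower. These are 37.5% of the 24, under the 47.8% of all genes, of which 2422 of 4148 were lower.

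The neighbour of *Igf2r*, the noncoding RNA *Airn*, which is read from the paternal copy across the *Igf2r* promoter, was called late where *Igf2r* was not. *Airn* gave 714.1, 308.4, 326.7, 527.1, 483.2, 616.5 and 666.7 by hour with the SETD5 virus, and 722.0, 268.5, 298.7, 346.7, 262.3, 452.7 and 365.1 with the empty virus. The late effect was 0.68 ± 0.09 (adjusted p = 0.00545), and both arms dropped at 12 h (−1.27 ± 0.21, adjusted p = 0.000856), as *Igf2r* did. Whether the 2 genes differ in their virus effect was not tested. *Kcnq1ot1*, a noncoding RNA that lies in the same stretch of chromosome 7 as *Igf2*, was also higher late (0.50 ± 0.11, adjusted p = 0.0233). *Atp10a*, a lipid-transporting ATPase, was the third (0.60 ± 0.15, adjusted p = 0.0302). With the SETD5 virus *Atp10a* gave 116.0, 110.6, 90.3 and 89.5 at the late hours, and with the empty virus 95.9, 60.0, 69.8 and 32.2.

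Over time, the other imprinted genes with the largest changes were *Slc38a4*, an amino acid carrier, and *Sgce*, a sarcoglycan. *Slc38a4* gave 443.9, 282.6, 139.7, 92.6, 153.2, 295.3 and 364.5 with the SETD5 virus, and 488.8, 295.5, 134.0, 114.2, 111.8, 127.6 and 160.2 with the empty virus. Like *Dlk1*, it was low in the middle hours and higher at the end in the SETD5 arm, but its late effect of 0.59 ± 0.20 was not called (adjusted p = 0.0781). *Sgce* fell by 1.77 ± 0.13 at 12 h (adjusted p = 8.84e-06), and *Gab1*, an adaptor of growth factor receptors, by 1.21 ± 0.13 (adjusted p = 7.56e-05). *Osbpl5*, a sterol-binding protein, fell by 0.57 ± 0.16 at 12 h (adjusted p = 0.0139), and *Tfpi2*, a protease inhibitor, by 0.92 ± 0.16 at 48 h (adjusted p = 0.00206). *Tfpi2* passed the filter only through arrays of 0 and 12 h, in which it was high. At 48 h it was under the filter, at 19.6 with the SETD5 virus and 20.3 with the empty virus. The filter thus favoured a call of a drop from 0 h for *Tfpi2*. *Dcn*, the matrix proteoglycan decorin, rose by 0.76 ± 0.16 at 192 h (adjusted p = 0.00976). Near the other members, 0 of 3 *Ndn* neighbours (*Magel2*, *Mkrn3*, *Peg12*), 0 of 2 *Peg3* neighbours (*Zim1*, *Usp29*) and 1 of 2 *Mest* neighbours (*Copg2*) passed the filter.

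**Figure D4:**
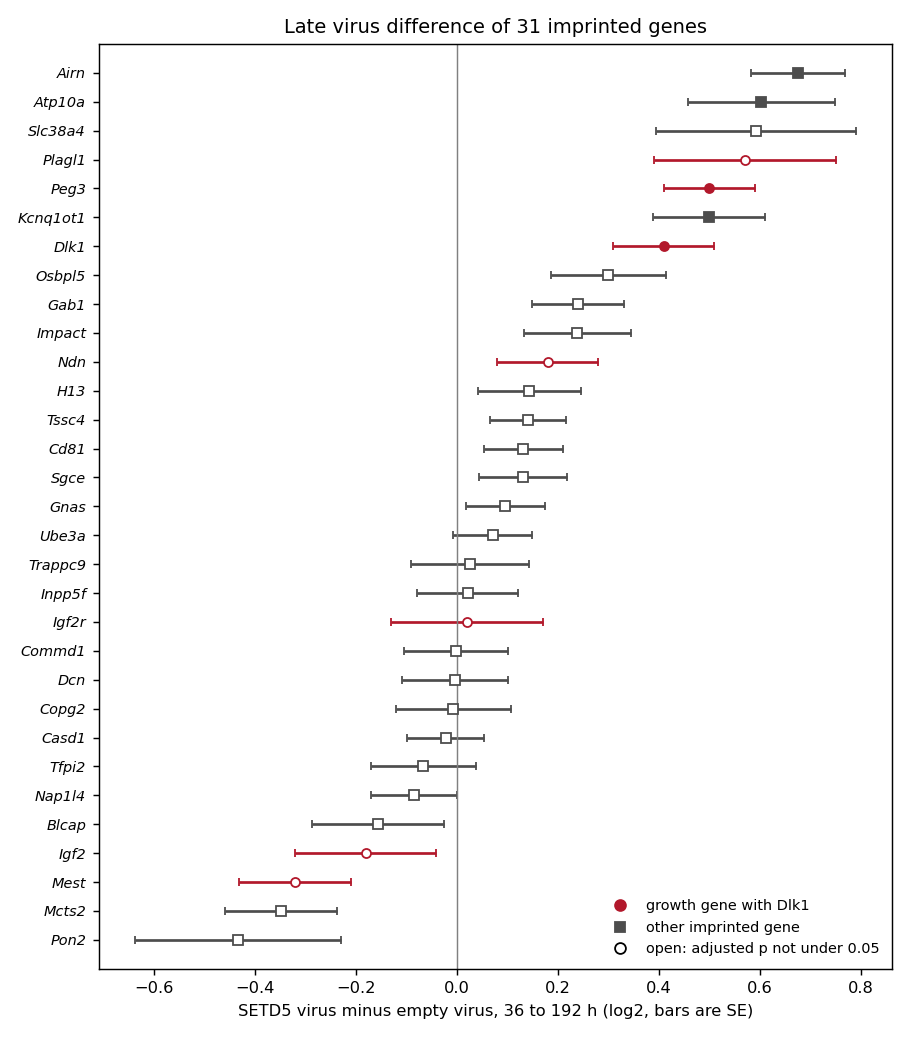
Late SETD5 effect (SETD5 virus minus empty virus over 36 to 192 h, log2, bars are SE) for the 7 tested growth genes (red circles) and 24 other imprinted genes (grey squares), filled where adjusted p was under 0.05. The 5 filled marks, *Airn* (0.68), *Atp10a* (0.60), *Peg3* (0.50), *Kcnq1ot1* (0.50) and *Dlk1* (0.41), all lie above 0.

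The partners of *Dlk1* and *Igf2* were a list of 19 genes, of which 14 were tested. Limma called none for the virus over all hours or late (3 had an unadjusted p under 0.05 in each, against 23.6% and 31.2% of all genes, median late effect 0.01), and 12 changed over the hours, against 66.0% of all genes. *Adam17*, the protease that sheds DLK1, ranged from 191.3 to 254.2 with the SETD5 virus and from 194.6 to 310.4 with the empty virus. *Notch1*, a receptor that DLK1 is thought to hinder, fell by 1.31 ± 0.12 at 12 h (adjusted p = 3.77e-05), and *Jag1*, its ligand, by 1.25 ± 0.13 (adjusted p = 7.52e-05). *Sox9*, which DLK1 keeps up in preadipocytes, was lower by 1.12 ± 0.19 at 192 h (adjusted p = 0.00372), an hour at which *Dlk1* was back near its start. *Dnmt1*, the enzyme that copies DNA methylation, was 1.09 ± 0.16 higher at 12 h (adjusted p = 0.000391) and 1.27 ± 0.16 lower at 192 h (adjusted p = 0.000678).

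The genes whose course over the 14 arrays was most like that of *Dlk1* were *Nfatc3*, *Emp1*, *Thbs3*, *Erp44* and *Fgf7*, with Pearson correlations of 0.91, 0.88, 0.88, 0.86 and 0.85 on the log2 scale. They were taken from 6446 tested genes with a mean of 100 or more, and the arrays share hours, lines and scaling, so the values are descriptions. *Fgf7*, a growth factor of fibroblasts, gave 759.7, 783.8, 606.2, 414.7, 413.4, 356.5 and 659.9 with the SETD5 virus, and 803.7, 962.0, 677.1, 482.5, 271.3, 213.8 and 343.2 with the empty virus. *Nfatc3* stayed within 271.6 to 347.6 with the SETD5 virus and 264.6 to 330.2 with the empty virus, a far narrower range than that of *Dlk1*. The least alike were *Cavin1* (−0.89), a coat protein of caveolae, *Ranbp9* (−0.89) and *Ddx51* (−0.88). *Cavin1* peaked at 1328 with the SETD5 virus at 96 h and at 1447 with the empty virus at 48 h, when *Dlk1* was low.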

How the data were processed

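RNA of each virus and hour was extracted with ISOGEN and hybridised as biotinylated cRNA to 1 array. The authors made the deposited intensity values, linear and not logged, with GeneChip Analysis Suite as the average difference per probe set. On each array the mean after trimming 2% at each end is 100, so the arrays share a scaling. No sources used here give the scaling settings. The 45100 probe sets include 64 controls. Of the others, 34944 have 1 symbol, 932 several and 9160 none. Symbols were updated through Entrez numbers to the RefSeq table. The number of arrays limits the precision.

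The probe set with the highest mean stood for each of 18193 genes, 8682 of which passed the filter (50 or more on 3 arrays). After adding 16 and taking log2, limma 3.58.1 (R 4.3.3) was fitted across all of them, two-sided, with Benjamini-Hochberg adjustment over all genes and a threshold of 0.05. The SETD5 effect had the hour as a replicate block, since arrays of 1 hour share a time in the labels (6 residual degrees of freedom, or 5 with separate early and late effects). Changes from 0 h had virus as a block. Groups came from the virus and hour in the labels. The script was tested on simulated data. Quantile and median scaling, offsets of 4 and 64, other filters, every probe set, other priors, no block and leaving out each hour were tried. All members were named, as were list genes by size among those called (up to 8 imprinted genes and 4 partners), which *Kcnq1ot1* and *Adam17*, chosen after their values were seen, add to. Members and lists were chosen with earlier results of these data known.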

Additional observations from a re-analysis of the deposited data

Results flagged for a closer look

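The difference between the SETD5 virus and the empty virus in *Igf2r* at 192 h, 0.66 on the log2 scale, stood apart from that of the other 6 hours, which were all below 0, the nearest at −0.06. The intensities of this main probe set were 1920 with the SETD5 virus and 1208 with the empty virus. The second probe set was also higher with the SETD5 virus at 192 h (568.6 against 391.0). It was higher at 24, 36 and 96 h too, so that the other hours lie below 0 holds for the main probe set only. Chance gives about 1 such value in 20 sets of this kind, 7 genes with 2 ends each were looked at, and no explanation was tested.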

How the results depend on the processing

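Of 77 results of the 7 tested genes, 68 kept their direction in all settings, and none of the 23 called ones reversed. The reversals were of uncalled values: *Igf2* over all hours, −0.14 to 0.02 without 1 hour; *Igf2* early, −0.02 to 0.16 without 1 hour; *Igf2* at 24 h, 0.04, and at 36 h, 0.13, with quantile normalization, and 0.04 at 36 h with a common median; *Igf2r* over all hours, 0.09 with its second probe set; *Igf2r* late, −0.02 with a common median and −0.19 to 0.12 without 1 hour; *Igf2r* at 48 h, −0.16 with quantile normalization, and at 96 h, 0.02 with a common median; *Ndn* late minus early, −0.06 to 0.15 without 1 hour.

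The genes called over all hours were 314, but 201 with quantile normalization, 106 with no filter, 821 over every probe set, 1 with no replicate block and 46 to 305 without 1 hour. Late calls were 1041, but 475 with no filter, 1700 over every probe set, 1 with no replicate block, 2367 with a late window of 96 and 192 h, and 291 to 1895 without 1 hour. Early calls were 2, but 0 with an offset of 64 or no replicate block, 1 with a filter of 100, 31 over every probe set, 8 beside the shorter late window, and 0 to 2 without 1 hour. Late minus early calls were 2, but 1 with quantile normalization, a common median or no filter, 4 with a filter of 100 or a trended prior, 0 with no replicate block, 916 with the shorter window, and 0 to 69 without 1 hour. Genes changing over the hours were 5728, and 8894 over every probe set. With no replicate block *Dlk1* late, *Peg3* and *Mest* lost their calls (adjusted p = 0.811 for *Dlk1* late). With no filter the calls of *Dlk1* late (0.0739), *Peg3* (0.0895) and *Mest* over all hours (0.07) were lost, and so was that of *Peg3* with quantile normalization (0.0556) and with a common median (0.0553). The cause was not tested, except that leaving out an hour lowers the degrees of freedom. With their main probe sets, *Dlk1* at 48 and 96 h, *Mest* from 36 h on, and *Igf2* and *Plagl1* at 192 h were called in every setting run, but the second *Dlk1* probe set was not called at 96 h (adjusted p = 0.129) or late (0.19). Values under 50, as in *Igf2* and *Plagl1* early on and in the second *Dlk1* probe set from 24 to 48 h, carry the most error. *Igf2* and *Plagl1* passed the filter only through arrays of later hours, in which they were high.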
